A study of Rattus norvegicus with 6 samples.

Results

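The 10 heat shock genes described here encode chaperones and co-chaperones of the cytosol and the mitochondrion: Hspa1a, Hspa1b, Hspa8, Hspb1, Hspb8, Dnajb1, Hsph1, Hsp90aa1, Bag3 and Hspd1. They were taken by gene symbol from the count table of 17771 genes. Of the 10, 9 have a row and all 9 passed the filter on low counts, among 14213 genes that did; Hspa1a was not analysed here. The corneas came from Wistar rats grafted with allogeneic cornea, the donors being SD (Sprague-Dawley) rats. One group of 3 libraries was from recipients given intraperitoneal resveratrol, a plant polyphenol, every day up to day 7 after surgery, and the other 3 libraries, called control, were from recipients given saline on the same schedule. Both groups carried an allograft, and no ungrafted cornea is among the 6 libraries, so the values show heat shock genes in grafted corneas with and without resveratrol and not the response to grafting. Whether each library is a separate animal is not stated in the labels, and a p-value then reflects only how these samples varied, which may be technical.

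Heat shock proteins hold unfolded or newly made proteins in a state from which they can fold. HSP70 proteins bind exposed hydrophobic stretches and release them in a cycle driven by ATP, HSP40 proteins deliver substrates to them, and HSP110 and BAG proteins drive the exchange of nucleotide that ends the cycle. Small heat shock proteins hold aggregating proteins without ATP, HSP90 completes the folding of signalling proteins, and HSP60 folds proteins imported into mitochondria. The stress-inducible members are transcribed through heat shock factor 1, which binds repeats of a short element in their promoters. The cornea is exposed to light, drying and injury, and its cells make these chaperones.

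None of the 9 genes passed the test across all genes, and their means moved in both directions. Hspa8, Hsp90aa1, Hspd1, Hsph1 and Dnajb1 had higher means in resveratrol corneas, and Hspb1, Hspb8, Bag3 and Hspa1b had lower means. The log2 fold changes, resveratrol minus control, lay between -0.28 for Bag3 and 0.39 for Hspd1. In edgeR's quasi-likelihood test 0 of the 9 passed an adjusted p of 0.05 (smallest 0.136, for Bag3), as did 0% of all 14213 genes. DESeq2, run as an alternative, also called 0 of the 9 (smallest adjusted p = 0.0562, for Bag3), against 6.87% of the 14666 genes to which it gave an adjusted p. At an unadjusted p under 0.05 edgeR gave 3 of the 9, Hspd1 higher and Hspb1 and Bag3 lower, against 19.6% of all genes tested; without control 2 it was 1 of the 9, against 12.6% of all genes. The groups did not overlap for 4 of the 9, Hspa8 and Dnajb1 above and Hspb1 and Bag3 below control. Over all genes tested, in the same TMM-scaled CPM, the groups did not overlap in 26.5%, with resveratrol above in 12.2% and below in 14.4%. In FPKM the number was 3 of the 9, without Hspa8, against 26.4% of all genes. Without resveratrol 1, leaving 2 against 3 libraries, it was 7 of the 9, against 37.9% of all genes.

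**Figure D1:**
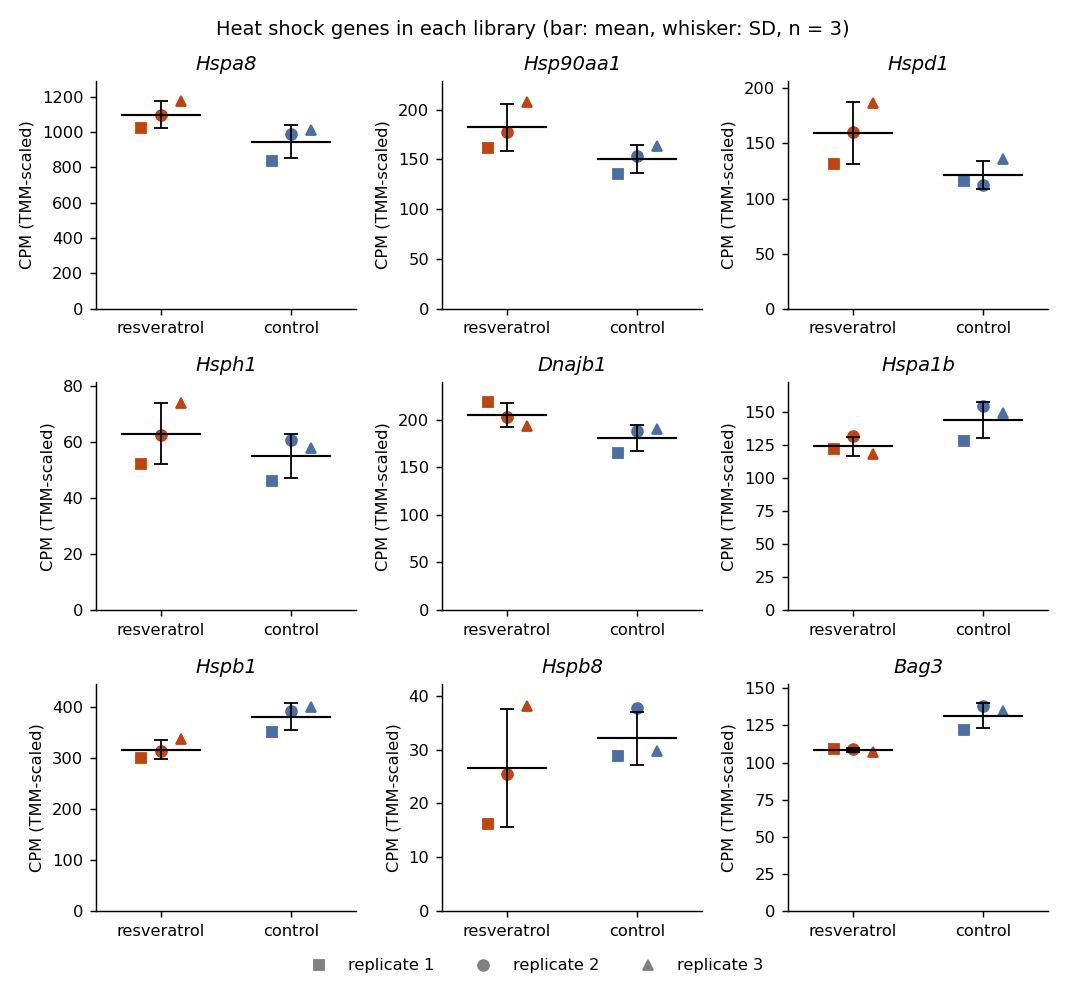
TMM-scaled CPM (counts relative to library size, vertical axes from 0) of the 9 heat shock genes in each library, resveratrol left and control right, with symbols for the replicate number, horizontal bars for means and whiskers for SD (n = 3). All resveratrol libraries lie above all control libraries for Hspa8 and Dnajb1 and below them for Hspb1 and Bag3; the other 5 genes overlap between the groups.

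Levels between genes were compared per length, as FPKM (fragments scaled to transcript length and library size), over all 6 libraries. Hspa8, the constitutive HSP70 of the cytosol also called HSC70, was the most abundant, with a mean of 487 FPKM and rank 139 among all listed genes. Hspb1, the small heat shock protein HSP25 of rodents, followed with 391 FPKM; Hspa8 was the higher of the 2 in 6 of 6 libraries although their ranges overlapped. Dnajb1 had 81.6 FPKM, far below the lowest Hspb1 value of 329 FPKM. Hsp90aa1 (59.7 FPKM), Hspd1 (57.1) and Bag3 (51.5) could not be ordered beyond their spread. Hspa1b stood at 33.1 FPKM, below Bag3 in 6 of 6 libraries. Hsph1 (16.3 FPKM) and Hspb8 (13.7 FPKM) were the lowest and overlapped. In counts, the 9 genes together held 0.209 to 0.250% of a resveratrol library and 0.191 to 0.226% of a control library.

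**Figure D2:**
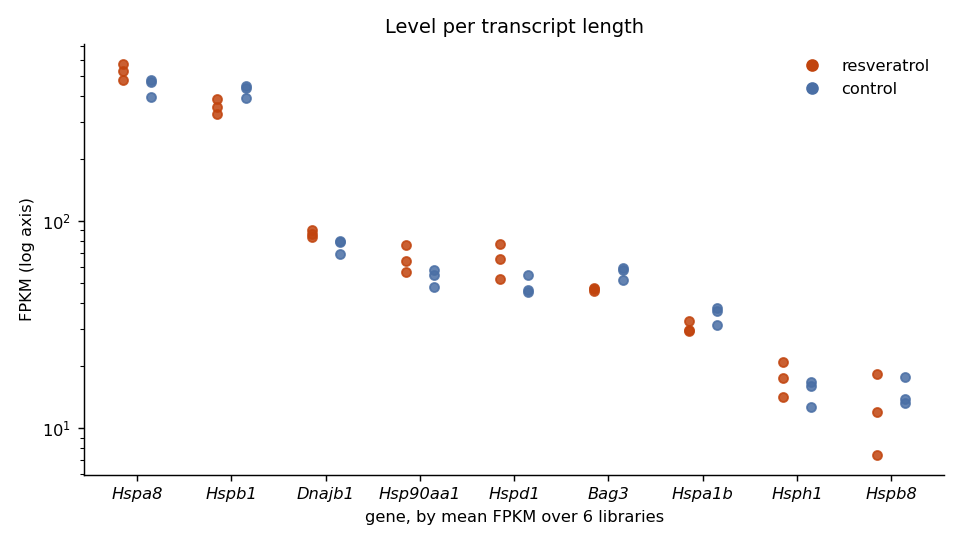
FPKM on a log axis of the 9 heat shock genes, ordered by mean, with 1 point per library (resveratrol left, control right of each gene). Hspa8 and Hspb1 lie between 329 and 574 FPKM in all 6 libraries, and the other 7 genes below 91 FPKM.

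Among the HSP70 proteins, Hspa8 had 1023, 1096 and 1177 CPM in resveratrol libraries 1, 2 and 3, against 837, 989 and 1013 CPM in control libraries 1, 2 and 3. The groups did not overlap in these TMM-scaled values, but the lowest resveratrol value lay only just above the highest control value. In FPKM they overlapped, with 477 FPKM in resveratrol 1 and 479 FPKM in control 3, as they did with upper quartile scaling and with library totals alone. The log2 fold change was 0.22 ± 0.11 (standard error), with an edgeR adjusted p of 0.31, and 0.14 without control 1. Hspa1b, a stress-inducible HSP70, had 122, 132 and 118 CPM in resveratrol, against 128, 154 and 149 CPM in control. Resveratrol 2 exceeded control 1, so the groups overlapped; the log2 fold change was -0.22 ± 0.092 (edgeR adjusted p = 0.265). Hspa1a and Hspa1b encode near-identical proteins, RefSeq lists Hspa1b among the synonyms of Hspa1a, and the sources used here do not give how reads shared by copies were counted. The level printed as Hspa1b is therefore uncertain and may hold reads of both. RefSeq (GRCr8) also names 33 pseudogenes of Hspa8, 20 of Hspd1 and 16 of Hsp90aa1, none of which has a row of its own in the count table, so the levels of these 3 genes are uncertain too.

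The partners of HSP70 did not share a direction. Dnajb1, the HSP40 that brings substrates to HSP70, had 219, 203 and 194 CPM in resveratrol, against 165, 188 and 190 CPM in control. The groups did not overlap, though resveratrol 3 and control 3 were close (log2 fold change 0.18 ± 0.086, edgeR adjusted p = 0.311). Hsph1, the HSP110 exchange factor, had 52.2, 62.7 and 74 CPM in resveratrol, against 46.3, 60.9 and 58.1 CPM in control. Its means differed by about as much as either SD, at 63 ± 10.9 CPM in resveratrol and 55.1 ± 7.73 CPM in control (SD, n = 3 each). Its log2 fold change of 0.19 was 0.07 without resveratrol 3, 0.09 without control 1 and 0.32 without resveratrol 1. Bag3, which links HSP70 to small heat shock proteins and to autophagy of their cargo, had 109, 109 and 107 CPM in resveratrol, against 122, 138 and 135 CPM in control. Its resveratrol libraries varied by 1.03% (coefficient of variation), the least of the 9 genes but less than the 1.6% that counting alone gives at its lowest count. Its control libraries varied by 6.66%, and all resveratrol libraries lay below all of them. The log2 fold change was -0.28 ± 0.074, with an adjusted p of 0.136 in edgeR and 0.0562 in DESeq2. Without control 1 DESeq2 called Bag3 (adjusted p = 0.0128, among 4.49% of genes), and over the other libraries left out it did not.

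Both small heat shock proteins had lower means in resveratrol, with very different spread. Hspb1 had 299, 313 and 336 CPM in resveratrol, against 350, 392 and 399 CPM in control, and the groups did not overlap. The log2 fold change was -0.27 ± 0.085 (edgeR adjusted p = 0.176, DESeq2 adjusted p = 0.132). Hspb8, a small heat shock protein that works in a complex with Bag3, had 16.2, 25.4 and 38 CPM in resveratrol, against 28.8, 37.8 and 29.7 CPM in control. Resveratrol 3 was the highest and resveratrol 1 the lowest of all 6 libraries, so all control libraries lay within the resveratrol range. Its log2 fold change of -0.27 had a standard error of 0.29, as large as the difference itself (edgeR adjusted p = 0.623). Without resveratrol 3 the value was -0.62, without control 2 it was -0.14, and without resveratrol 1 it was -0.01 in edgeR and 0.004 in DESeq2. The coefficient of variation of Hspb8 was 41.2% in resveratrol, at a lowest count of 593.

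The HSP90 gene of the cytosol and the mitochondrial chaperonin had higher means in resveratrol. Hsp90aa1, the stress-inducible HSP90, had 161, 177 and 208 CPM in resveratrol, against 135, 153 and 163 CPM in control. Resveratrol 1 lay just below control 3 (log2 fold change 0.28 ± 0.12, edgeR adjusted p = 0.255), and without resveratrol 3 the log2 fold change was 0.18. Hspd1, which encodes HSP60, had 131, 160 and 187 CPM in resveratrol, against 116, 112 and 136 CPM in control. Only resveratrol 1 lay within the control range, and the log2 fold change of 0.39 ± 0.14 was the largest of the 9 genes (edgeR adjusted p = 0.203, DESeq2 adjusted p = 0.11). Without resveratrol 1 DESeq2 called Hspd1 (adjusted p = 0.0175, among 3.73% of genes), at a log2 fold change of 0.54, whereas without resveratrol 3 the value was 0.27.

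Some of this spread was shared between genes. In 6 of the 9 genes (Hspa8, Hsp90aa1, Hspd1, Hsph1, Hspb1 and Hspb8) resveratrol 1 was the lowest and resveratrol 3 the highest of the resveratrol libraries, an order found in 21.2% of all genes tested. In 8 of the 9, all but Hspd1, control 1 was the lowest control library, as in 33.7% of all genes tested. Replicate 1 of each group has a description ending in Sep, replicates 2 and 3 have Oct, and the meaning of these endings is not stated. The difference kept its sign within both endings for 9 of 9 genes. Its size differed most for Hspb8, at -0.83 between the Sep libraries (1 per group) and -0.11 between the means of the Oct libraries (2 per group), for Dnajb1 (0.41 in Sep and 0.07 in Oct), for Hspd1 (0.18 in Sep and 0.49 in Oct) and for Hspa1b (-0.07 in Sep and -0.28 in Oct). With Sep again given before Oct, Hsp90aa1 (0.25 and 0.28), Hsph1 (0.17 and 0.20) and Hspb1 (-0.23 and -0.28) differed little between the endings, and Hspa8 (0.29 and 0.18) and Bag3 (-0.17 and -0.34) more.

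Ratios of genes within a library do not depend on how libraries were scaled. The ratio of Hspa8 to Hspb1 FPKM was 1.45, 1.48 and 1.48 in resveratrol libraries 1, 2 and 3, against 1.01, 1.07 and 1.07 in control. Both groups were tight, and the distance between them was many times the spread within either (log2 ratio 0.56 ± 0.018 in resveratrol and 0.07 ± 0.048 in control, SD, n = 3 each). The ratio of Dnajb1 to Bag3 was 1.98, 1.83 and 1.79 in resveratrol, against 1.33, 1.34 and 1.38 in control, and that of Hspa8 to Hspa1b was 16.1, 16 and 19.3 in resveratrol, against 12.5, 12.3 and 13.1 in control. The ratio of Hspd1 to Hspb1 was 0.159, 0.185 and 0.201 in resveratrol, against 0.12, 0.103 and 0.123 in control. By contrast, the ratios of Hspa8 to Dnajb1, of Hspa8 to Hsph1 and of Hspb1 to Bag3 differed by at most 0.04 in mean log2 ratio and overlapped between the groups. Over all 36 pairs of the 9 genes, the ratio did not overlap between the groups in 17, or 47.2%, against 25.1% of the pairs among 14184 genes with a count in every library. Of those 17 pairs, 16 joined a gene with a higher mean to a gene with a lower mean (16 of 20 such pairs) and 1 joined genes of like direction (1 of 16, Hspd1 to Hsph1). The split by direction follows in part from how the genes were sorted, and the ratios named were picked after their values were seen, so no test was made. A ratio shows unequal change and not which of its genes changed.

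**Figure D3:**
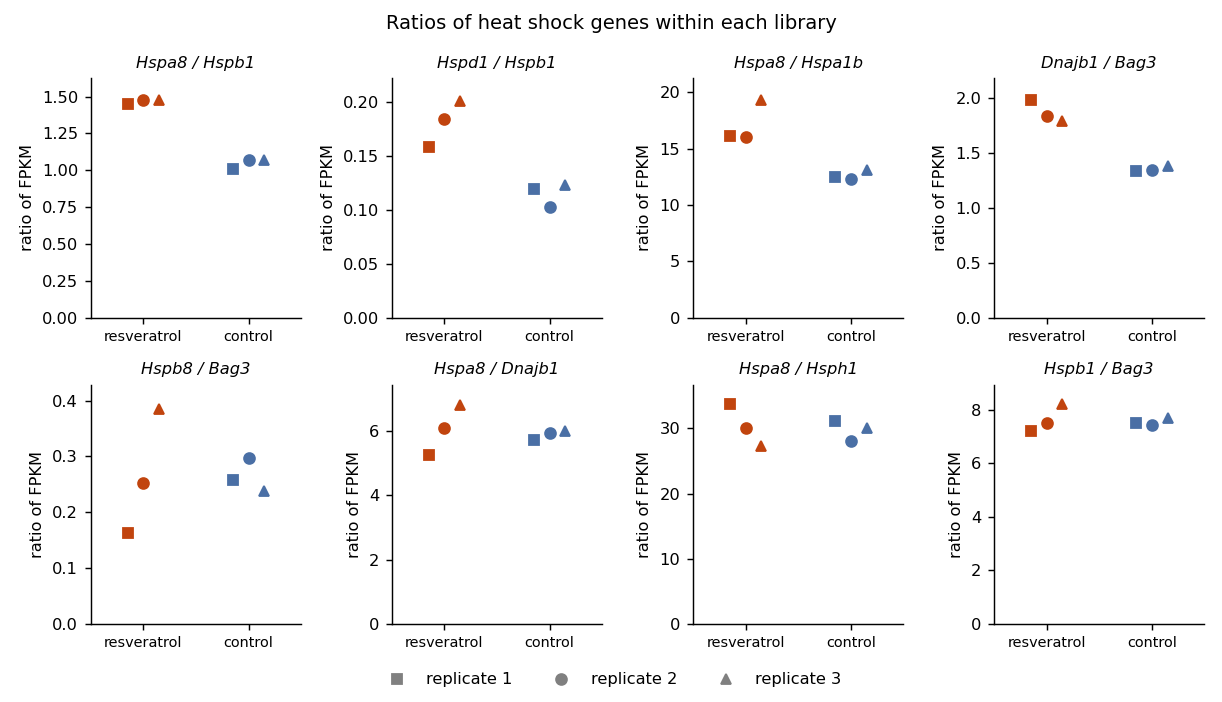
Ratios of FPKM between pairs of heat shock genes within each library (vertical axes from 0), resveratrol left and control right, with symbols for the replicate number. The first 4 ratios, which join a gene with a higher mean to one with a lower mean, do not overlap between the groups; the last 4 do.

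The promoters are shown because the members that heat shock factor 1 drives carry its element, inverted repeats of GAA, and differ in how many repeats lie near the start. RefSeq promoter sequences (GRCr8, 250 bases before each gene's annotated start) were matched by symbol for 8 of the 10 genes; Hspa1b and Hsp90aa1 are not shown. Each stretch below runs 5′ to 3′ on the gene's own strand, with 10 bases either side of the outermost matches where the window allows, and capitals mark bases that belong to a match. The 2-unit motif was GAANNTTC or TTCNNGAA, each its own reverse complement, and the 3-unit motif was either of these followed, after 2 bases of any kind, by a further GAA or TTC in alternation, which covers both strands. A 3-unit match holds 2-unit matches within it.
Hspa8: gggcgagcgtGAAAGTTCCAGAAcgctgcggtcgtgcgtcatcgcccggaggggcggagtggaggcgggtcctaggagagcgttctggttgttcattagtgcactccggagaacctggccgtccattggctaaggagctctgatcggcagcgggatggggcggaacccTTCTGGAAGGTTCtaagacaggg
Hspd1: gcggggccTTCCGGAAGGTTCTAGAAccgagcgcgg
Hsph1: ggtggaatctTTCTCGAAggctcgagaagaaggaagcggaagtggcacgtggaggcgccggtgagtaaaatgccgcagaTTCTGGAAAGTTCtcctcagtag
Dnajb1: gggaggggcgGAAGGTTCtgg
Hspb1: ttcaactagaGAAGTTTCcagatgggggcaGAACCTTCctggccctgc
Hspb8: gaagccaggaGAAGTTTCtaggcgcgtg
Bag3: gatgggaccaGAAGTTTCtagccggcca

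These stretches lie at chr8:50080291-50080481 (plus strand) for Hspa8, chr9:64084252-64084287 (minus) for Hspd1, chr12:10427253-10427354 (plus) for Hsph1, chr19:41431142-41431162 (minus) for Dnajb1, chr12:26432393-26432440 (minus) for Hspb1, chr12:45837275-45837302 (plus) for Hspb8 and chr1:192533318-192533345 (plus) for Bag3. The 3-unit motif was in 3 of the 8 promoters, Hspa8, Hspd1 and Hsph1, and in 0.663% of all 33469 promoters of the same length. Hspa8 held 2 separate 3-unit matches, and in Hspd1 2 such matches overlapped to form a longer run. The 2-unit motif was in 7 of the 8, against 13.5% of all promoters, and the stretch of Hspa1a in the table held neither, which says only that these letters are not in this window. All 3 genes with the 3-unit motif had higher means in resveratrol, as did 5 of all 9 heat shock genes tested. Dnajb1, Hspb1, Hspb8 and Bag3, with the 2-unit motif alone, had means in both directions. Hspa1b and Hsp90aa1, whose means moved in opposite directions, are not among these promoters. A link between motif and direction was not tested. A match describes the letters and is not evidence that a factor binds there.

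**Figure D4:**
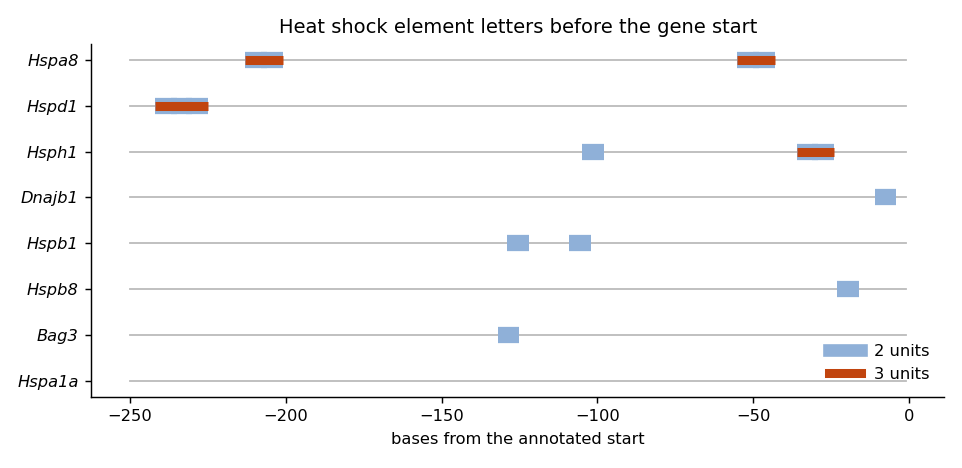
Matches to the 2-unit and 3-unit heat shock element motifs in the 250 bases before the annotated start of 8 heat shock genes (horizontal axis, bases from the start). The 3-unit matches are in Hspa8, Hspd1 and Hsph1, and no match lies in the window of Hspa1a.

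The wider chaperone system was described with lists of HSP70, HSP90, HSP40 and small heat shock relatives, co-chaperones, the chaperonin TRiC, mitochondrial chaperones and heat shock factors, 77 genes in all, of which 73 were tested. Of these 73, 52 had higher and 21 lower means in resveratrol, with a median log2 fold change of 0.09, against -0.008 over all genes tested, of which 48.8% had a higher mean. EdgeR called 0 of the 73 and gave 10 at an unadjusted p under 0.05, 9 higher and 1 lower, against 7.84% and 11.7% of all genes tested. DESeq2 called 2 of the 73, both higher, against 6.87% of the 14666 genes to which it gave an adjusted p. One was Hspa9, or mortalin, the HSP70 of the mitochondrial matrix, at 187 ± 10.1 CPM in resveratrol and 145 ± 8.86 CPM in control (log2 fold change 0.36 ± 0.078, edgeR adjusted p = 0.121, DESeq2 adjusted p = 0.00494). The other was Cacybp, which binds the ubiquitin ligase adaptor SKP1 and is related to the HSP90 co-chaperone Sgt1, at 74 ± 0.963 CPM in resveratrol and 56.3 ± 5.82 CPM in control (0.39 ± 0.092, edgeR adjusted p = 0.121, DESeq2 adjusted p = 0.00994). In DESeq2, Hspa9 lost its call without control 2 (adjusted p = 0.075). Cacybp lost it without control 2 and without each resveratrol library (adjusted p of 0.0546 to 0.0688).

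Among 9 HSP70 and HSP110 relatives, 6 had higher means (median 0.13), led in abundance by Hspa4, an HSP110 exchange factor, at 262 ± 14.1 CPM in resveratrol and 220 ± 13.8 CPM in control (0.25 ± 0.079, edgeR adjusted p = 0.177). The groups did not overlap for 6 of the 9, against 26.5% of all genes tested (12.2% above and 14.4% below control). Of these 6, 3 lay above control (Hspa4, Hspa9 and Hspa14) and 3 below it. The 3 below were Hspa12b, which endothelial cells express, at 7.22 ± 1.85 CPM in resveratrol and 10.6 ± 1.74 CPM in control (-0.56 ± 0.23, edgeR adjusted p = 0.238), and the low-level genes Hspa2 (-0.54 ± 0.27) and Hspa1l (-0.48 ± 0.23), known for their expression in testis; these were named after their values were seen. Of the 12 mitochondrial chaperones and proteases 10 had higher means (median 0.14). The most abundant after Hspa9 was Yme1l1, an inner membrane protease, at -0.03 ± 0.073. Hspe1, the HSP10 lid of the HSP60 chamber, was named after its values were seen and had 47.4 ± 5.97 CPM in resveratrol and 40.5 ± 4.47 CPM in control (0.23 ± 0.12), beside the 0.39 of Hspd1. All 8 subunits of TRiC, the chaperonin that folds actin and tubulin, had higher means (median 0.14, range 0.05 to 0.24), and 5 did not overlap between the groups, against 12.2% of all genes tested that lay above control. Of its most abundant subunits, Cct5 (0.06 ± 0.066) overlapped between the groups and Cct3 (0.15 ± 0.075, edgeR adjusted p = 0.334) did not. Of 11 HSP90 co-chaperones 9 had higher means (median 0.16), with Ptges3, or p23, at 191 ± 14.8 CPM in resveratrol and 153 ± 16.5 CPM in control (0.32 ± 0.10) and Cdc37, which brings kinases to HSP90, at -0.04 ± 0.075.

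Other branches showed no common direction. Hsp90ab1, the constitutive HSP90, was at 1323 ± 89.6 CPM in resveratrol and 1274 ± 80.6 CPM in control (0.06 ± 0.099), and Trap1, its mitochondrial relative, at 0.01 ± 0.090. The 15 HSP40 genes had a median of 0.01, with Dnaja2 at 0.17 ± 0.070 and Dnajb6 at 0.05 ± 0.071. The 10 BAG proteins and other HSP70 regulators had a median of 0.02, with Bag6 at -0.10 ± 0.089 and St13 at 106 ± 2.93 CPM in resveratrol and 107 ± 2.63 CPM in control. The heat shock factors and their binding proteins (5 tested, median 0.06) included Hsf1, the main stress-responsive factor, at 42.1 ± 3.94 CPM in resveratrol and 37.9 ± 1.41 CPM in control (0.15 ± 0.093, edgeR adjusted p = 0.396), and Hsbp1 at -0.07 ± 0.087. Among 4 other small heat shock proteins (median -0.02), Cryab was at 10.5 ± 3.32 CPM in resveratrol and 9.7 ± 5.71 CPM in control, and Hspb6 at -0.15 ± 0.17. In the proteasome and ubiquitin list (9 tested, median 0.03), Ubb stood at 0.03 ± 0.097. DESeq2 called 1 gene of it lower, Sqstm1, which encodes the autophagy receptor p62 and acts with Bag3, at 143 ± 9.19 CPM in resveratrol and 180 ± 16.6 CPM in control (-0.34 ± 0.092, edgeR adjusted p = 0.146, DESeq2 adjusted p = 0.0494). The call was 1 of 9, against 6.87% of the genes to which DESeq2 gave an adjusted p. It held without control 3 and was lost without each other library (DESeq2 adjusted p of 0.0686 to 0.309).

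**Figure D5:**
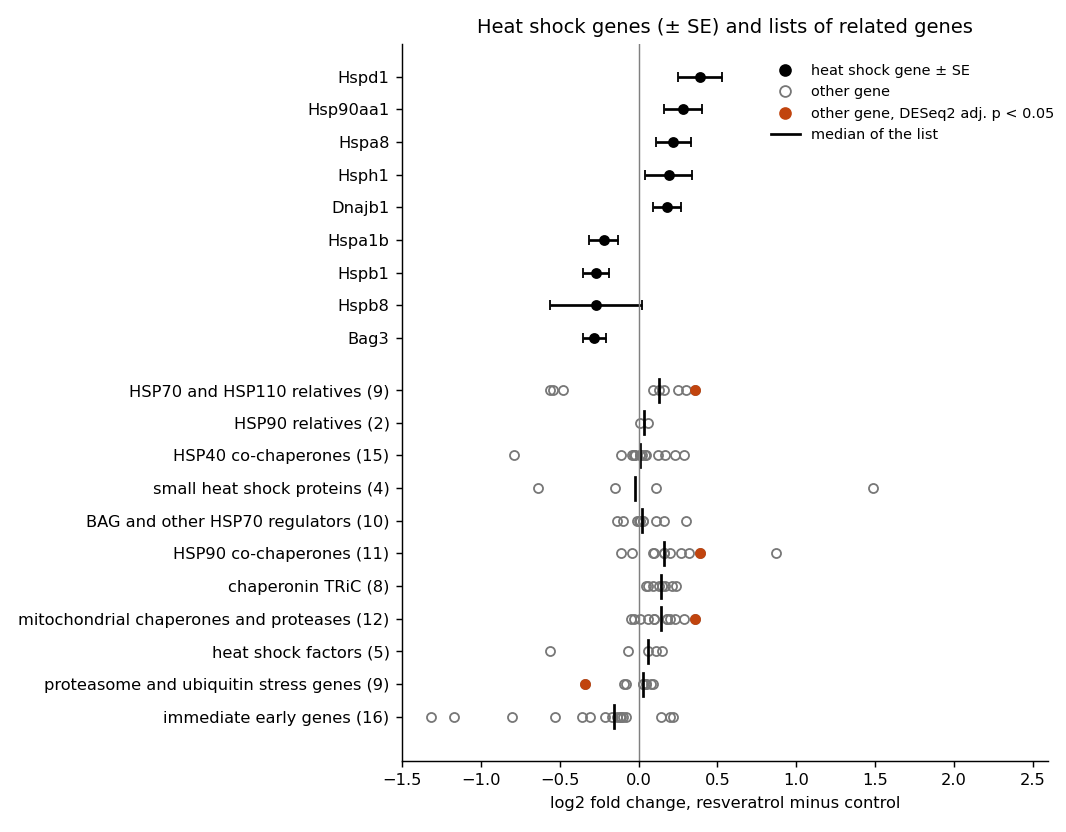
Log2 fold change, resveratrol minus control, of the 9 heat shock genes (black points, whiskers for standard error) and of lists of related genes (open circles, filled where DESeq2 gave an adjusted p under 0.05, vertical bar for the list's median, number tested in brackets). The heat shock genes lie between -0.28 and 0.39, and all 8 TRiC subunits lie above 0.

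The immediate early genes, which encode transcription factors and other proteins induced fast by many stimuli, were set beside these values. Of 16, 13 had lower means in resveratrol (median -0.16), and 0 passed in edgeR or DESeq2. Klf4, which the corneal epithelium also expresses, was at 751 ± 61.2 CPM in resveratrol and 654 ± 39.3 CPM in control, and Junb at 436 ± 94.3 CPM in resveratrol and 460 ± 154 CPM in control. By library, the median deviation of the 16 genes from their mean log2 CPM was 0.23, -0.40 and -0.09 in resveratrol and -0.29, 0.15 and 0.50 in control, so the groups overlapped.

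Markers of the other cells in a cornea bear on bulk values, in which fewer cells of a type and less RNA per cell cannot be told apart. Total counts were 36904770 to 37301669 in resveratrol and 35068936 to 37460756 in control. The corneal epithelium was prominent, with 7 of 8 markers tested and a summed 71879 to 81464 CPM in resveratrol and 72361 to 81560 CPM in control. Krt12 and Krt5 were the most abundant of the list. The groups overlapped for all markers tested but Tp63, against 12.2% of all genes tested that lay above control. Tp63 had 359, 224 and 238 CPM in resveratrol, against 204, 218 and 200 CPM in control (0.40 ± 0.17, edgeR adjusted p = 0.266). All 7 keratocyte and fibroblast markers had lower means (summed 8930 to 12544 CPM in resveratrol and 13276 to 19193 CPM in control). The groups did not overlap for Col1a1 (log2 fold change -0.97 ± 0.27), Col1a2 (-0.91 ± 0.23) and Thy1 (-0.69 ± 0.16). They overlapped for Lum (-0.26 ± 0.14), Kera (-0.19 ± 0.27), Dcn (-0.07 ± 0.21) and Pdgfra (-0.06 ± 0.22). Col1a1 and Col1a2 were the most abundant of the list. All 7 vessel markers had lower means too (338 to 405 CPM in resveratrol and 492 to 713 CPM in control), as did all 7 smooth muscle and pericyte markers (329 to 415 CPM in resveratrol and 539 to 652 CPM in control). Of the immune cells, all 5 T cell markers tested had lower means (3.9 to 4.11 CPM in resveratrol and 5.95 to 14.8 CPM in control), as did all 4 neutrophil markers tested (168 to 207 CPM in resveratrol and 225 to 593 CPM in control) and 6 of 8 macrophage markers (313 to 465 CPM in resveratrol and 394 to 802 CPM in control). The corneal endothelium list had 2 of 5 markers higher (814 to 1386 CPM in resveratrol and 814 to 991 CPM in control). Skeletal muscle, a tissue rich in Hspb8 and Bag3, had 1 of 8 markers tested, and Acta1, Myh2, Myh4 and Actn3 were at 0 in at least 1 library. Lens markers summed to 5.61 to 10.6 CPM in resveratrol and 5.01 to 6.99 CPM in control, and iris and pigment markers to 2.26 to 7.89 CPM in resveratrol and 2.16 to 10.7 CPM in control. The 1 red cell marker tested, Hbb, had 2.2 to 6.64 CPM in resveratrol and 3.78 to 8.53 CPM in control. Over all genes tested, 48.8% had a higher mean. EdgeR called 0 markers. DESeq2 called lower 3 of 7 keratocyte and fibroblast, 4 of 7 vessel and 3 of 7 smooth muscle and pericyte markers. It also called lower 3 of 5 T cell, 1 of 4 neutrophil, 3 of 8 macrophage and 2 of 5 corneal endothelium markers. Of 7 epithelial markers it called 0. Among all genes to which it gave an adjusted p, it called 6.87%. The lower means of stromal, vascular and immune markers stand beside those of Hspb1, Bag3, Hspb8 and Hspa1b. Several of these markers overlapped between the groups, and their part in the values of the heat shock genes was not tested.

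The genes whose pattern was most like the mean profile of the 9 heat shock genes were sought among 9009 other genes with a mean of at least 10 CPM, by Pearson correlation of log2 CPM over the 6 libraries. The profile, a mean of z-scores, was -0.48, 0.10 and 0.51 in resveratrol and -0.79, 0.31 and 0.35 in control. Since 5 of the 9 genes had higher and 4 lower means, differences between the groups largely cancel in this mean. It averages genes that did not all follow it, as correlations between pairs of them ran from -0.69 (Hspd1 and Bag3) to 0.97 (Hsp90aa1 and Hspa8). Ube2z (0.994), Srf (0.992) and Lrrc8a (0.991) were most like the mean profile, and Arpc5l (-0.998), Wdr24 (-0.990) and Acad9 (-0.989) least. Srf, the serum response factor, had 61.1, 73.9 and 83.9 CPM in resveratrol, against 52.1, 78.9 and 83.9 CPM in control. Over 6 libraries such values are a description and carry no test.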

How the data were processed

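Per the labels' protocols, corneal RNA was sequenced as paired-end reads (Illumina NovaSeq). The deposited counts are raw whole numbers per gene symbol, and FPKM values were also deposited by the authors. All 6 single-library FPKM files held the values of the FPKM table. Per the submitters' processing notes, DESeq2, R 3.2.0 and the build mRatBN7.2 were used, in roles not stated. Aligner, counter, annotation, strand setting and treatment of shared reads: not given in the sources used here. A separator is missing in the header of the count table, and columns were assigned by name.

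Counts were filtered with filterByExpr at its defaults, scaled by TMM and tested in edgeR 4.0.16 (glmQLFit, glmQLFTest; R 4.3.3) with Benjamini-Hochberg adjustment over all tested genes. Standard errors come from limma 3.58.1 (trend, log2 CPM with a prior count of 2). DESeq2 1.42.0 was an alternative. Both tests were tried on simulated counts. Exact permutation of 3 against 3 libraries was not used. The heat shock genes, gene lists and tests were chosen with earlier results of these data known. Every heat shock gene is named, and of each list the 2 genes with the highest mean CPM and up to 3 that DESeq2 called. One gene that this rule names is not reported here. Alternatives covered scaling, filters, other tests, FPKM with pseudocounts of 1 and 0.1, the replicate block, the Sep or Oct ending and leaving out each library.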

Additional observations from a re-analysis of the deposited data

How the results depend on the processing

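Over 28 alternatives, the direction of the log2 fold change held for 8 of the 9 heat shock genes, under every scaling and filter among them; Hspb8 turned to 0.004 in DESeq2 without resveratrol 1. In edgeR and limma fits 0 of the 9 passed in any alternative, at an adjusted p of 0.1 included. DESeq2 called 1 without resveratrol 1 (Hspd1, adjusted p = 0.0175, among 3.73% of genes) and 1 without control 1 (Bag3, among 4.49%), so the range over single libraries left out was 0 to 1. Fits added after the data were seen called 1 with DESeq2 and the replicate block (Hspd1, among 4.93%) and 2 with DESeq2 and the description ending as covariate (Bag3 and Hspb1, among 7.95%). Over these DESeq2 fits the adjusted p was 0.0175 to 0.406 for Hspd1, 0.0128 to 0.327 for Bag3 and 0.0349 to 0.433 for Hspb1.

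The number at an unadjusted p under 0.05, 3 in the main test, was 5 with the replicate block (19.2% of all genes), 6 with the ending as a covariate (21.6%) and 5 in the Oct libraries alone (16%). In DESeq2 it was 5 in each of these fits (13.1%, 17.5% and 11.5% of all genes). Leaving out single libraries gave 1 to 4, the 1 without control 2 in both tools (12.6% of all genes in edgeR and 11.2% in DESeq2). The number of genes whose groups did not overlap, 4 in the main values, was 3 with all 6 libraries kept under upper quartile scaling, library totals alone, no filter on low counts and FPKM (23.2 to 26.4% of all genes), Hspa8 being the gene lost. It was 4 to 7 without single libraries, where 32 to 39.1% of all genes did not overlap in edgeR's scaling (7 without resveratrol 1, with 37.9%), and 8 for the Oct libraries by either scaling, where 52.2% (edgeR) and 47.1% (DESeq2) of all genes did not overlap; fewer libraries make separation easier. The median log2 fold change of the 9 genes, 0.18, was 0.068 to 0.22 in edgeR without single libraries (0.068 without resveratrol 3, 0.086 without control 1) and 0.072 in the Oct libraries alone. Its moves in all 28 were below 0.159, the pooled SD of the libraries' median deviations. That bar is nearly as large as the median, so it does not show the median to be stable. With 5 genes higher and 4 lower, the main median is the smallest positive value, that of Dnajb1. Over all genes tested, same-numbered libraries did not deviate together from their group means (correlations of -0.00442, -0.0123 and -0.0225). This does not show a pairing but cannot exclude one, and the labels do not state whether the numbers pair samples.

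Over all genes, where edgeR called 0, DESeq2 called 1007 and edgeR's likelihood ratio test 829. Without single libraries edgeR called 0 to 21 (1 without resveratrol 2, 21 without control 3) and DESeq2 530, 642 and 826 without resveratrol 1, 2 and 3 and 623, 390 and 1041 without control 1, 2 and 3. DESeq2 called 672 with the replicate block, 1111 with the ending and 404 in the Oct libraries alone. Among the related genes, the likelihood ratio test also called Hspa9 and Cacybp (adjusted p of 0.0322 and 0.027); the DESeq2 call of Sqstm1 was lost with the replicate block (adjusted p = 0.0681). The causes were not tested. Summing Hspa1a and Hspa1b was not run, since Hspa1a was not analysed here. Counts of the 9 genes were 593 to 44685 per library.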
